A study of Homo sapiens with 18 samples.

Results

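RNA of vehicle-treated Panc327 cells was compared with RNA of vehicle-treated SUIT2 cells. Both are human pancreatic ductal adenocarcinoma (PDA) lines. The members are every library labelled as one of these lines with DMSO, the solvent that served as the vehicle, which gave 3 Panc327 and 3 SUIT2 libraries, 6 of the 18 in the series. All gene symbols of the count files were used, without the summary entries of the counting tool. The other libraries are 3 of BxPC3, a further PDA line, with DMSO, and 3 of each line given 100 nM THZ1 for 6 h, the same 6 h as the DMSO. THZ1 is a covalent inhibitor of the transcription kinase CDK7. The labels name no engineered change, and what differs between the groups is the line. Each line stands for 1 tumour, and the labels do not say that its 3 libraries came from separate cultures. The p-values therefore measure the spread between libraries of the same group, estimated over all 18 libraries of the series, and this spread may be technical.

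PDA cells are commonly sorted into a classical programme, led by the endodermal factors that build pancreas and gut epithelium, and a basal-like or squamous programme, led by TP63 and by keratins of stratified epithelium. Classical cells tend to keep mucins, trefoil factors and other gut products, whereas basal-like cells tend to lose GATA6 and HNF4A and to take on desmosomes and kallikreins. Loss of epithelial identity toward a mesenchymal state, marked by vimentin and the repressor ZEB1, is a further axis along which PDA lines are known to differ.

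The 6 libraries held between 7341873 and 8631273 counts in genes, and 15187 to 16608 genes had at least 1 count. Of 26485 gene symbols, 14011 had enough counts to be tested. A gene is said to be called where the adjusted p (edgeR quasi-likelihood test, Benjamini-Hochberg over all genes tested) was under 0.05. With DMSO 11553 genes were called (82.5%), 6005 of them higher in Panc327 (42.9%) and 5548 higher in SUIT2 (39.6%). A size was therefore added to most counts: 3100 genes were called and at least 2-fold higher in Panc327 (22.1%) and 2459 in SUIT2 (17.6%). The counts of each gene list are to be read against these shares of all genes tested, and with most lists the number tested is given, since a gene with too few counts in every group could not be called. At 8-fold and more the counts were 1368 (9.76%) and 719 (5.13%). Log2 fold changes are Panc327 minus SUIT2, so positive values are higher in Panc327, and their median over all genes was 0.04. Levels are CPM, counts scaled to a common library total with TMM factors, given in the order of replicates 1, 2 and 3. A gene with 0 counts in all 3 libraries of a line may have had up to 0.118 CPM in SUIT2 or 0.109 CPM in Panc327, the level of 3 counts over the group, which covers counting error only.

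Low readings of genes that were high in the other line were not equal between libraries. For 84 genes with at least 100 CPM in Panc327 and under 5 CPM in SUIT2, the median reading in SUIT2 replicates 1, 2 and 3 was 0.0941%, 0.0686% and 0.262% of the Panc327 level, and replicate 3 read highest for 58 of them. For the 38 genes of the opposite kind, Panc327 replicates 1, 2 and 3 read 0.140%, 0.411% and 0.282% of the SUIT2 level, with replicate 2 highest for 24. The readings of many line-restricted genes described here are of this size, and the source of such reads was not tested.

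Markers of carcinoma cells were present in both lines. EPCAM, an epithelial adhesion molecule, was at 463 ± 10.6 CPM in Panc327 and 217 ± 10.7 CPM in SUIT2 (SD, n = 3). KRT19, a keratin of duct cells, was at 802 ± 15.8 and 909 ± 41.3 CPM. KRT8 and KRT18, which pair in simple epithelium, were both higher in SUIT2, at 3916 ± 100.2 and 2111 ± 66.2 CPM against 1126 ± 15.7 and 733 ± 2.07 CPM. Both lines thus carried the defining keratins of carcinoma cells, whereas CDH1 and KRT7 were high in Panc327 alone of the pair.

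Markers of other cell types were mostly absent. The 16 fibroblast and stellate cell markers summed to 69.6 to 72.7 CPM in the Panc327 libraries and 4.53 to 6.72 CPM in those of SUIT2, with DCN and POSTN at 0 counts in all 6. Of 20 leukocyte and blood markers the summed level was 18.6 to 22.5 CPM in Panc327 and 312 to 341 CPM in SUIT2, where nearly all of it was lysozyme and CD68, and the pan-leukocyte gene PTPRC was at 0 counts in all 6 libraries. Endothelial markers summed to 20.2 to 22.5 and 24.5 to 27.6 CPM, with KDR at 0 counts. Of the 12 endothelial markers, VWF, the clotting factor carrier, was at 12.5 ± 0.757 CPM in Panc327 with 1 count in SUIT2, and PECAM1 at 0.146 ± 0.0656 against 2.93 ± 0.533 CPM. For acinar and islet genes the sums were 9.86 to 13.5 and 199.8 to 205 CPM, and PRSS1, PRSS2, INS and GCG were at 0 throughout. The SUIT2 sum came mainly from PRSS3 and from the nuclear receptor NR5A2. In bulk libraries fewer cells with a gene and less RNA of it per cell cannot be told apart.

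Genes of the basal-like programme were high in Panc327 and close to 0 in SUIT2. TP63, the master regulator of stratified epithelium, read 398, 375 and 378 CPM in Panc327 and 0.243, 0.488 and 0.552 CPM in SUIT2. KRT5, the type II keratin of basal cells, read 1329, 1322 and 1309 CPM against 0.607, 0 and 2.87 CPM, and KRT17 read 1327, 1231 and 1322 CPM against 0.971, 0.488 and 1.88 CPM. All 3 Panc327 libraries lay far above the SUIT2 libraries, and the SUIT2 readings were highest in replicate 3 as they were for most genes of this kind. The fitted log2 fold changes were 9.74 for TP63 (SE 0.11, adjusted p = 9.18e-84), 10.06 for KRT5 (SE 0.24, adjusted p = 1.82e-14) and 10.13 for KRT17 (SE 0.23, adjusted p = 1.12e-14). BxPC3 was on the Panc327 side for these genes, with 258 ± 13.8 CPM of TP63 and 2828 ± 13.9 CPM of KRT5 (SD, n = 3).

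Of 31 basal-like markers in the files, 24 were called and at least 2-fold higher in Panc327 and 1 in SUIT2, and 2 had too few counts to be tested. Over all genes tested the corresponding shares were 22.1% and 17.6%. KRT14 read 28.6, 25 and 24.9 CPM in Panc327 and had 0 counts in SUIT2, at least 222-fold higher in Panc327. The cysteine protease inhibitor CST6 (41.2, 31.7 and 38.6 CPM) likewise had 0 counts in SUIT2, with a level at least 315-fold higher in Panc327. SOX2, a pluripotency and foregut factor of squamous epithelium, read 129, 127 and 119 CPM in Panc327 and 0, 0 and 0.331 CPM in SUIT2. The marker at least 2-fold higher in SUIT2 was DHRS9, a retinol dehydrogenase, at 0.664 ± 0.095 CPM in SUIT2 and 0.0728 ± 0.126 CPM in Panc327, both low. BCAR3, a signalling adaptor, was called higher in SUIT2 by a smaller step, with 20.2, 17 and 20.2 CPM in Panc327 and 26.8, 27.2 and 24.9 CPM in SUIT2 (log2 fold change -0.46).

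**Figure D1:**
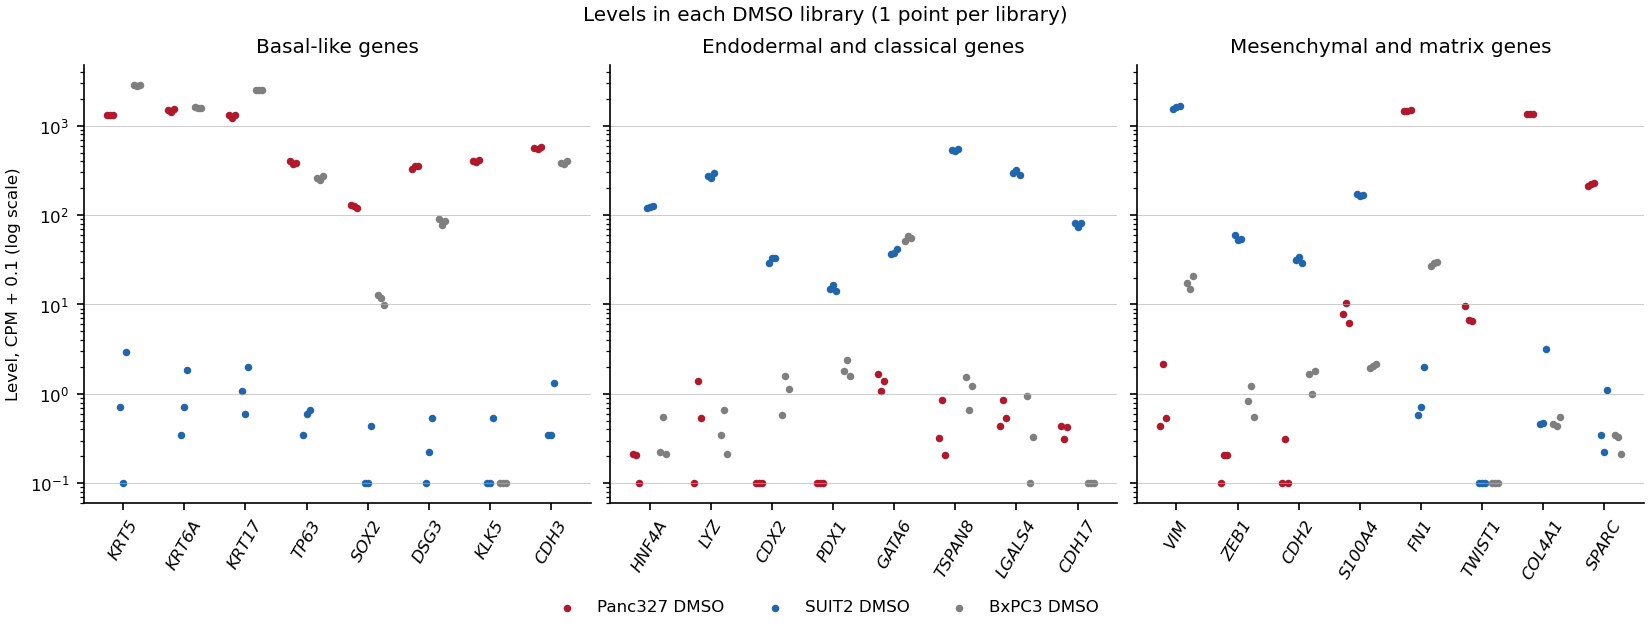
Level of 24 genes in each DMSO library of Panc327 (red), SUIT2 (blue) and BxPC3 (grey), as CPM + 0.1 on a log axis, 1 point per library, in 3 panels of basal-like, endodermal or classical, and mesenchymal or matrix genes. The 3 libraries of a line lie close together at high levels, Panc327 is high for the basal-like genes and SUIT2 for the endodermal ones, and the mesenchymal panel divides between the lines, with VIM, ZEB1, CDH2 and S100A4 higher in SUIT2 and FN1, TWIST1, COL4A1 and SPARC higher in Panc327.

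Keratins, the intermediate filaments of epithelia, were mostly higher in Panc327. Of 23 keratins in the files, 13 were called and at least 2-fold higher in Panc327 and 2 in SUIT2, and 4 had too few counts to be tested. KRT6A, a keratin of activated squamous cells, read 1502, 1437 and 1538 CPM in Panc327 and 0.243, 0.61 and 1.77 CPM in SUIT2, and KRT13 read 159.7, 168 and 169.9 CPM against 0.364, 0.122 and 0.552 CPM. KRT7, a duct keratin, was at 995 ± 30.9 CPM in Panc327 and 13.6 ± 1.37 CPM in SUIT2. The 4 keratins called higher in SUIT2 were KRT8, KRT18, KRT80 and KRT19, with log2 fold changes of -1.80, -1.53, -0.33 and -0.18. All of these 4 were also expressed in Panc327, whereas many of the keratins on the Panc327 side were close to 0 in SUIT2. Reads of KRT6A, KRT6B and KRT6C, and of KRT14, KRT16 and KRT17, can be split uncertainly between near-identical copies.

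Kallikreins, secreted serine proteases that shed the outer layer of skin, and the serpins that inhibit such proteases followed the keratins. Of 29 kallikrein and serpin genes in the files, 17 were called and at least 2-fold higher in Panc327 and 2 in SUIT2, and 6 had too few counts to be tested. KLK5, which activates the other skin kallikreins, read 404, 394 and 415 CPM in Panc327 and 0, 0 and 0.442 CPM in SUIT2. KLK7 was at 35.4 ± 1.19 CPM in Panc327 with 1 count in SUIT2, and KLK6 at 28.3 ± 1.88 CPM, also with 1 count. SERPINB13 and SERPINB7 had 0 counts in SUIT2, and their levels were at least 98.5-fold and at least 84.6-fold higher in Panc327. SERPINE2, an inhibitor of thrombin and urokinase, was the large exception, at 10.2, 9.86 and 9.28 CPM in Panc327 and 785, 778 and 810.4 CPM in SUIT2 (log2 fold change -6.34, SE 0.06, adjusted p = 1.44e-89). BxPC3, which shared the basal keratins with Panc327, had 0 ± 0 CPM of KLK5 and 0.23 ± 0.195 CPM of KLK7.

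Cell junction genes were higher in Panc327 in the main. Of 41 junction genes in the files, 28 were called and at least 2-fold higher in Panc327 and 4 in SUIT2, and 1 had too few counts to be tested. E-cadherin (CDH1), the adherens junction protein of epithelia, read 620.3, 620.4 and 635 CPM in Panc327 and 23.4, 26.9 and 31.7 CPM in SUIT2 (log2 fold change 4.51, SE 0.06, adjusted p = 8.63e-70), so SUIT2 kept it at a low level. P-cadherin (CDH3), the cadherin of basal cells, read 557, 552 and 577 CPM against 0.243, 0.244 and 1.22 CPM. The desmosomal genes PKP1, DSC3 and DSG3 were at 323 ± 10.5, 502 ± 11.9 and 346 ± 13 CPM in Panc327, and no SUIT2 library read above 1 CPM for any of them. PRSS8, a membrane protease of tight epithelia, had 0 counts in SUIT2 and was at least 209-fold higher in Panc327. The 4 members at least 2-fold higher in SUIT2 were CLDN2, CDH17 and the tight junction genes TJP3 and CLDN3 (log2 fold changes of -4.05 and -2.37). The pore-forming claudin CLDN2 read 169, 161 and 173 CPM in SUIT2 and 0, 0.214 and 0.655 CPM in Panc327, and the intestinal cadherin CDH17 read 80.6, 73.5 and 81.6 CPM against 0.333, 0.214 and 0.327 CPM.

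Endodermal transcription factors were the mirror image. HNF4A, the nuclear receptor that directs liver and gut epithelium, read 121, 125 and 127 CPM in SUIT2 and 0.111, 0.107 and 0 CPM in Panc327, 2 counts in all, a ratio of 1710.5 (95% interval 473 to 14130.3) in favour of SUIT2. CDX2, the intestinal homeobox factor, read 29.3, 32.7 and 32.7 CPM in SUIT2 and had 0 counts in Panc327, at least 289.8-fold lower there. PDX1, the homeobox factor of pancreas and duodenum, read 14.8, 16.5 and 14 CPM in SUIT2 and had 0 counts in Panc327, at least 138-fold lower. GATA6, which marks the classical programme, was lower in Panc327 but not absent, with 1.55, 0.965 and 1.31 CPM against 36.2, 37.7 and 41.1 CPM (log2 fold change -4.90, SE 0.15, adjusted p = 1.26e-48).

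Of 35 endodermal and epithelial transcription factors and splicing regulators in the files, 7 were called and at least 2-fold higher in Panc327 and 20 in SUIT2, and 6 had too few counts to be tested. The 7 members on the Panc327 side were ESRP1, ESRP2, GRHL1, GRHL2, OVOL1, OVOL2 and the endodermal forkhead factor FOXA3. FOXA3 was low, at 2.76 ± 0.218 CPM in Panc327 with 2 counts in SUIT2. ESRP1, which directs epithelial splicing, read 93.6, 102 and 96.5 CPM in Panc327 and 0.364, 0.855 and 0.331 CPM in SUIT2, and its relative ESRP2 read 119, 114 and 115 CPM against 18.2, 19.4 and 20.1 CPM. GRHL2, a factor that keeps E-cadherin on, was at 92.7 ± 5.6 CPM against 7.81 ± 0.453 CPM (log2 fold change 3.57). BxPC3 was on the SUIT2 side for GATA6, at 55 ± 3.54 CPM, but had 0.229 ± 0.193 CPM of HNF4A.

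Secreted and surface products of the classical programme had members on both sides, with a much larger summed level in SUIT2. The listed classical markers summed to 202 to 214 CPM in the Panc327 libraries and 1436 to 1481 CPM in those of SUIT2. Of 30 classical markers in the files, 7 were called and at least 2-fold higher in Panc327 and 11 in SUIT2, and 8 had too few counts to be tested. TSPAN8, a tetraspanin of gut epithelium, read 529, 516 and 548 CPM in SUIT2 and 0.222, 0.75 and 0.109 CPM in Panc327, and the galectin LGALS4 read 295, 316 and 280.0 CPM against 0.333, 0.75 and 0.437 CPM. Lysozyme (LYZ) read 275, 262 and 295 CPM in SUIT2 and 0, 1.29 and 0.437 CPM in Panc327. In these 3 genes the low readings of Panc327 were highest in replicate 2, the library with the highest low readings overall. REG4, an intestinal secreted lectin, was at 32.2 ± 1.82 CPM in SUIT2 with 1 count in Panc327. AGR2, a disulfide isomerase needed to fold mucins and itself a classical marker, was the opposite, with 94.2, 99.6 and 97 CPM in Panc327 and 0.486, 0.366 and 0.773 CPM in SUIT2 (log2 fold change 7.42). S100P, a calcium-binding protein, was also on the Panc327 side, at 6.33 ± 0.542 CPM against 0.0812 ± 0.0703 CPM. Of 20 S100 genes in the files 5 were called and at least 2-fold higher in Panc327 and 4 in SUIT2 (13 tested), against 22.1% and 17.6% of all genes tested. With only the 6 compared libraries in the model, 4 classical markers in place of 7 and 3 S100 genes in place of 5 were called and at least 2-fold higher in Panc327.

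Mesenchymal genes did not go to 1 line. VIM, the vimentin filament of mesenchymal cells, read 1535, 1614 and 1661 CPM in SUIT2 and 0.333, 2.04 and 0.437 CPM in Panc327 (log2 fold change -10.70, SE 0.11, adjusted p = 1.24e-44). ZEB1, a repressor of E-cadherin, read 60.1, 52 and 53.3 CPM in SUIT2 and 0, 0.107 and 0.109 CPM in Panc327, and N-cadherin (CDH2) read 31, 33.7 and 29.1 CPM against 0, 0.214 and 0 CPM. The calcium-binding protein S100A4, the microfibril protein FBN1 and the receptor kinase AXL were also higher in SUIT2, with log2 fold changes of -4.37, -3.19 and -2.29. SUIT2 had these levels together with EPCAM, KRT8 and KRT18.

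More members were higher in Panc327. Of 42 mesenchymal genes in the files, 21 were called and at least 2-fold higher in Panc327 and 9 in SUIT2, and 9 had too few counts to be tested. Fibronectin (FN1), an adhesive matrix protein, read 1463, 1459 and 1495 CPM in Panc327 and 0.486, 0.61 and 1.88 CPM in SUIT2 (log2 fold change 10.47, SE 0.09). The matrix glycoprotein SPARC read 213, 223 and 227 CPM against 0.243, 0.122 and 0.994 CPM, and the gelatinase MMP2 read 84.6, 79.4 and 79.8 CPM against 0.121, 0 and 0.221 CPM. TWIST1, a transcription factor of mesoderm and of epithelial-mesenchymal transition, read 9.42, 6.54 and 6.44 CPM in Panc327 and had 0 counts in SUIT2, at least 63.3-fold lower there. Of 16 fibroblast and stellate cell markers, 4 were called and at least 2-fold higher in Panc327 and 0 in SUIT2 (6 tested). Over all genes tested the shares were 22.1% and 17.6%. COL3A1 was at 5.52 ± 0.711 CPM in Panc327 with 0 counts in SUIT2, and FAP had 57 counts in Panc327 and 0 in SUIT2. DCN and POSTN, from the same list, were at 0 counts in both lines.

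Collagens lay almost wholly on the Panc327 side. Of 36 collagen genes in the files, 24 were called and at least 2-fold higher in Panc327 and 1 in SUIT2, and 9 had too few counts to be tested. The basement membrane chains COL4A1 and COL4A2, which lie head to head on chromosome 13, read 1365, 1356 and 1355 CPM and 1708, 1669 and 1715 CPM in Panc327. In SUIT2 they read 0.364, 0.366 and 3.09 CPM and 0.486, 0.122 and 1.88 CPM, with replicate 3 highest. COL4A5 and COL4A6, a second such pair on chromosome X, were at 161 ± 2.17 and 194 ± 5.91 CPM in Panc327 and 0.195 ± 0.0643 and 0.184 ± 0.319 CPM in SUIT2. The fibril-associated collagen COL14A1 had 0 counts in SUIT2 and 42.5 ± 4.21 CPM in Panc327, at least 361-fold higher. BxPC3 had 378 ± 8.22 CPM of COL4A6 but 0.387 ± 0.061 CPM of COL4A1.

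Laminins, which build the basement membrane, and integrins, which bind it, went both ways, with 11 of 36 genes called and at least 2-fold higher in Panc327 and 8 in SUIT2 (29 tested). LAMA1, a laminin chain of embryonic basement membranes, read 238, 258 and 239.8 CPM in Panc327 and 0.243, 0 and 0.442 CPM in SUIT2. LAMA4, a laminin chain of vessels and muscle, was on the other side, with 150.1, 146 and 145 CPM in SUIT2 and 0, 0.322 and 0.109 CPM in Panc327. Matrix proteases were divided in the same manner, 15 and 14 of 44 (38 tested). MMP7, the matrix metalloprotease of glandular epithelium, read 1364, 1379 and 1459 CPM in SUIT2 and 1.22, 2.47 and 1.2 CPM in Panc327 (log2 fold change -9.73, SE 0.08). MMP10 was at 298 ± 19.7 CPM in Panc327 and 0.232 ± 0.105 CPM in SUIT2, and ADAMTS1 had 0 counts in SUIT2, at least 289-fold lower there than in Panc327.

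Coagulation and plasminogen genes showed opposed pairs. Tissue factor (F3), which starts the clotting cascade, read 302, 292 and 303 CPM in Panc327 and 10.4, 11.1 and 9.94 CPM in SUIT2. TFPI, the inhibitor of that step, read 0.443, 0.643 and 0.437 CPM in Panc327 and 112, 97.7 and 115 CPM in SUIT2 (log2 fold change -7.69), whereas its relative TFPI2 was at 9.8 ± 1.3 CPM in Panc327 and 0.0812 ± 0.0703 CPM in SUIT2. Urokinase (PLAU), which activates plasminogen, was at 68.5 ± 3.64 CPM in Panc327 and 524 ± 17.5 CPM in SUIT2 (log2 fold change -2.94). Of the 25 genes listed, 6 were called and at least 2-fold higher in Panc327 and 7 in SUIT2 (18 tested).

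**Figure D2:**
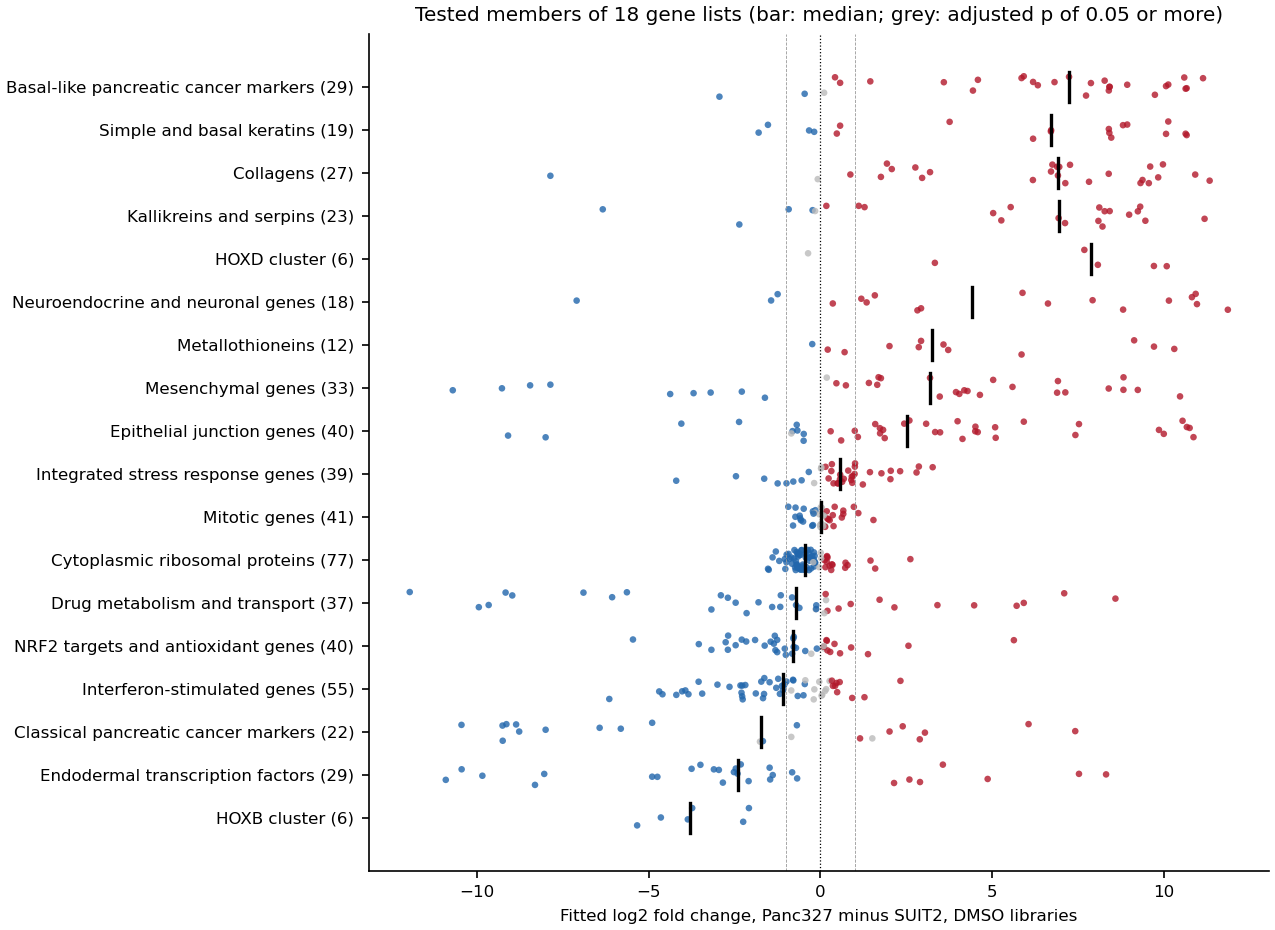
Fitted log2 fold change (Panc327 minus SUIT2, DMSO libraries) of each tested member of 18 gene lists, 1 point per gene, with the number tested in brackets. Black bars are list medians, red and blue points were called higher in Panc327 and SUIT2, grey points had an adjusted p of 0.05 or more, and dashed lines mark 2-fold. Lists stand in a fixed order and not by median. Basal-like markers (median 7.24) and keratins are at the top, and endodermal factors (median -2.41) and the HOXB cluster (median -3.80) at the bottom. The largest median of the lists shown was that of the HOXD cluster (7.88). Fitted values of genes with 0 counts in a line depend on the prior count and are not bounds. With such genes at their bound the median of the basal-like markers is 5.57 and that of the HOXD cluster 6.05. The median of the classical markers then goes from -1.72 to -3.29.

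The lines differed in which growth factor receptors they expressed most. The EGF receptor (EGFR) read 792, 784 and 772 CPM in Panc327 and 206, 196 and 208 CPM in SUIT2 (log2 fold change 1.94, SE 0.04). MET, the receptor of hepatocyte growth factor, was the reverse, at 138, 145 and 148 CPM in Panc327 and 922, 848 and 924 CPM in SUIT2 (log2 fold change -2.64, SE 0.04). ERBB2 was at 113 ± 3.38 and 120.0 ± 4.17 CPM and was not called (adjusted p = 0.1, and 0.0178 scaled by library size alone). Ligands of EGFR were also divided. Amphiregulin (AREG) was at 117 ± 4.08 CPM in Panc327 and 9.72 ± 0.858 CPM in SUIT2, epiregulin (EREG) at 30.1 ± 3.27 and 96.9 ± 7.37 CPM, and TGFA at 56 ± 1.15 and 77 ± 2.47 CPM. Of 22 genes of this group 9 were called and at least 2-fold higher in Panc327 and 4 in SUIT2 (19 tested).

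Among the other receptor tyrosine kinases and growth factor genes, 20 of 54 were called and at least 2-fold higher in Panc327 and 13 in SUIT2 (44 tested). FGFR2, the epithelial FGF receptor, read 205, 196 and 215 CPM in Panc327 and 0.364, 0.733 and 0.663 CPM in SUIT2. FGFBP1, a carrier that releases FGFs from the matrix, was at 196 ± 13.7 and 0.903 ± 0.181 CPM. The proteins that bind insulin-like growth factors were exchanged. IGFBP2 read 64.5, 60.6 and 65.1 CPM in Panc327 and had 0 counts in SUIT2 (at least 538-fold lower), IGFBP1 read 259, 279.8 and 283 CPM in SUIT2 and 0, 0.643 and 0.109 CPM in Panc327, and IGFBP3 read 139, 147 and 151 CPM against 1.11, 0.75 and 1.09 CPM.

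WNT ligands signal through Frizzled receptors to the TCF factors, whose feedback target AXIN2 is a common readout. AXIN2 read 10.4, 11 and 11 CPM in SUIT2 and 0.111, 0.214 and 0.109 CPM in Panc327, and the factors TCF7 and TCF7L2 were higher in SUIT2 as well, with log2 fold changes of -2.55 and -2.49. The ligands WNT10A and WNT4 were higher in Panc327, at 15.8 ± 1.01 and 20.8 ± 1.88 CPM against 0.114 ± 0.111 and 0.472 ± 0.0261 CPM. DKK3, a secreted relative of the WNT inhibitors, was at 168 ± 0.706 CPM in Panc327 and 4.81 ± 0.541 CPM in SUIT2. Counted over the 54 listed genes, 19 were called and at least 2-fold higher in Panc327 and 7 in SUIT2 (38 tested).

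TGF-beta and BMP genes gave even counts, 14 and 14 of 52 (46 tested), with large differences inside. BMP4 read 294, 323 and 307 CPM in SUIT2 and 0, 0.322 and 0.109 CPM in Panc327, and BMP7 read 203, 224 and 226 CPM against 4.77, 6.65 and 4.69 CPM. ID3, a target of BMP signalling, was nonetheless higher in Panc327, at 171, 174 and 162 CPM against 0.971, 1.22 and 1.55 CPM. The activin trap follistatin (FST) was at 69.2 ± 1.36 CPM in Panc327 and 0.195 ± 0.0643 CPM in SUIT2. TGFBR2, the receptor that binds TGF-beta, was at 71.1 ± 2.94 CPM in Panc327 and 403 ± 12.2 CPM in SUIT2, while TGFBR1, its signalling partner, was at 133 ± 5.48 and 43 ± 3.89 CPM.

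Of 35 targets and components of the YAP pathway, 18 were called and at least 2-fold higher in Panc327 and 7 in SUIT2, with a median log2 fold change of 1.10 against 0.04 over all genes. The target ANKRD1 was at 14.8 ± 1.2 CPM in Panc327 and 0.899 ± 0.372 CPM in SUIT2. YAP1 itself, the coactivator, was lower in Panc327, at 113, 109 and 100.3 CPM against 235, 234 and 245 CPM (log2 fold change -1.15, SE 0.05). AXL and IGFBP3, also counted as targets, were on the SUIT2 side as given in their own groups.

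Among 35 genes that are recurrently mutated or lost in PDA, 6 were called and at least 2-fold higher in Panc327 and 8 in SUIT2, close to the shares of all genes (22.1% and 17.6%), and 2 had no reads in SUIT2. SMAD4, the shared mediator of TGF-beta and BMP signals, read 38, 43.5 and 42.9 CPM in Panc327 and had 0 counts in each SUIT2 library, at least 353-fold lower there. KDM6A, a histone H3 lysine demethylase, read 12.6, 16 and 13.3 CPM in Panc327 and also had 0 counts in SUIT2, at least 119-fold lower. At the floor in Panc327 was CDKN2A, the cell cycle inhibitor locus of p16 and ARF, with 1 count against 9.47, 10.7 and 11.3 CPM in SUIT2. BxPC3 had 0 counts of SMAD4 and CDKN2A and 31.2 ± 1.01 CPM of KDM6A.

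The neighbours of these genes showed how far the missing signal reached. In coordinates of GENCODE 29 on GRCh38, SMAD4 lies on chromosome 18 from 51028394 to 51085045, KDM6A on chromosome X from 44873177 to 45112602 and CDKN2A on chromosome 9 from 21967753 to 21995301. On either side of SMAD4, ELAC1 was at 4.56 ± 1.43 CPM and MEX3C at 24.6 ± 2.07 CPM in SUIT2, so both adjacent expressed genes had reads there (SD, n = 3). In BxPC3 both had 0 counts, and ME2, the next gene beyond ELAC1, was at 0.0406 ± 0.0703 CPM against 43.4 ± 1.34 CPM in SUIT2. Beside KDM6A, FUNDC1 was at 28.8 ± 1.39 CPM and KRBOX4 at 7.4 ± 0.622 CPM in SUIT2. Within the sets shown, KDM6A was therefore the only expressed gene at 0 counts in SUIT2 in its neighbourhood, and SMAD4 the only one in its own.

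Beside CDKN2A in Panc327, MTAP, a methionine salvage enzyme that is often lost together with it, was expressed at 66.3, 70.3 and 64.2 CPM, against 377, 344 and 362 CPM in SUIT2 (log2 fold change -2.43, SE 0.05). KLHL9 was at 30.1 ± 2.8 and 56.4 ± 1.07 CPM, and DMRTA1 at 7.86 ± 1.16 and 3.83 ± 0.761 CPM, in Panc327 and SUIT2. HACD4 had 2.98 ± 0.594 CPM in Panc327 and 0 counts in SUIT2. BxPC3 differed from both lines here, with 0 counts of KLHL9 and DMRTA1 and 0.157 ± 0.075 CPM of MTAP. Counts do not show whether a gene is absent from the genome or present and not transcribed, and whether the 0 counts of SMAD4 and KDM6A match the genotype of the SUIT2 stock, or bear on the identity of the libraries labelled SUIT2, was not tested.

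**Figure D3:**
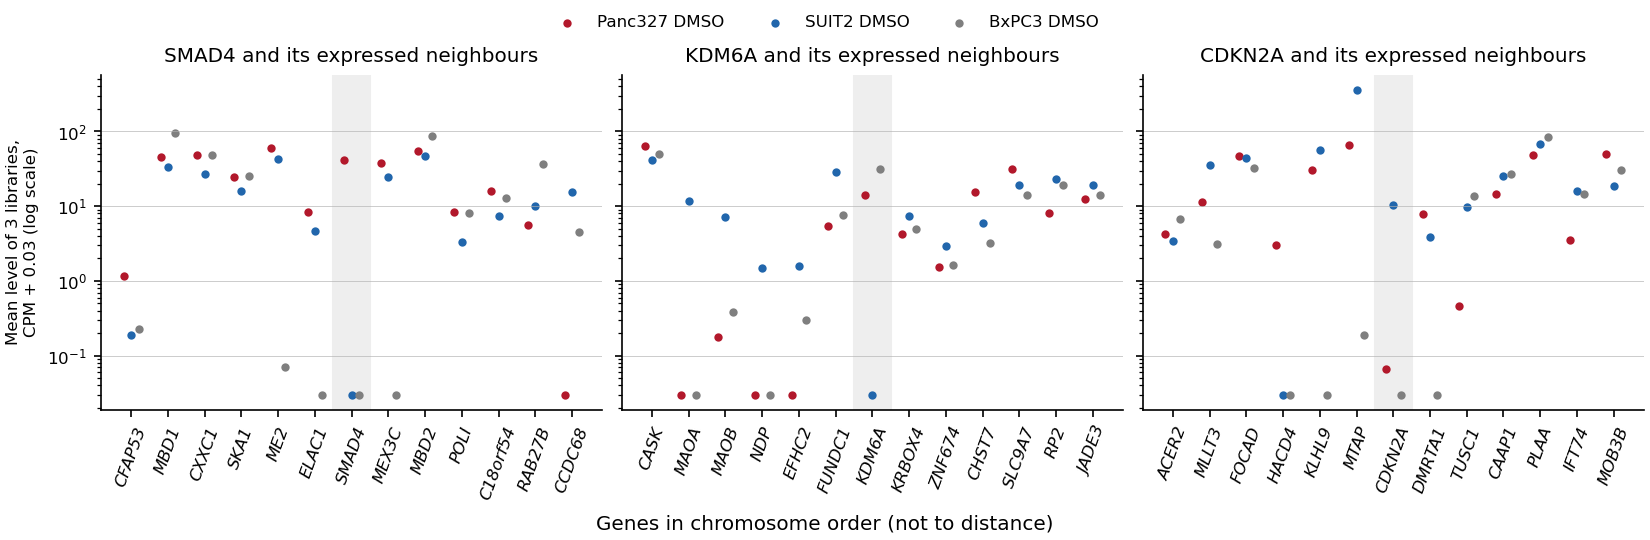
Mean level of 3 DMSO libraries (CPM + 0.03, log axis) of SMAD4, KDM6A and CDKN2A (grey bands) and the 6 expressed genes on each side of each, in chromosome order and not to distance, for Panc327 (red), SUIT2 (blue) and BxPC3 (grey). SMAD4 and KDM6A sit at the bottom of the axis in SUIT2 while their direct neighbours do not, and in BxPC3 ELAC1, MEX3C, KLHL9 and DMRTA1 sit there with SMAD4 or CDKN2A.

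Of the other genes in this group, several were expressed in both lines at different levels. MYC read 308, 290.2 and 308 CPM in Panc327 and 196, 199.7 and 202 CPM in SUIT2. The chromatin remodelling subunits ARID1A and ARID1B were higher in Panc327, with log2 fold changes of 1.65 and 1.95, and the remodeller ATPase SMARCA2 was lower, at 3.99, 5.25 and 5.89 CPM against 106, 104 and 106 CPM.

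Genes of drug handling were higher in SUIT2 in the main. Of 44 genes of drug metabolism and transport, 17 were called and at least 2-fold higher in SUIT2 and 8 in Panc327 (37 tested). ABCB1, the multidrug efflux pump, read 84.2, 88.8 and 90.5 CPM in SUIT2, with 2 counts in Panc327. The cytochrome CYP3A5, which oxidises many drugs and is known as a marker of some PDA cells, read 38.9, 42.9 and 46.1 CPM in SUIT2 with 1 count in Panc327. DPYD, which breaks down fluorouracil, was at 123 ± 3.56 CPM in SUIT2 and 1.02 ± 0.179 CPM in Panc327. UGT1A10 and UGT1A1 were also on this side, although their transcripts share exons, so that counts cannot be placed with certainty. In Panc327 cytidine deaminase (CDA), which inactivates gemcitabine, was the higher, at 26.1, 26.9 and 23.8 CPM against 4.98, 5.25 and 6.85 CPM (log2 fold change 2.16, SE 0.13).

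NRF2 is the factor that answers oxidative and electrophilic stress. Of 43 of its targets and other antioxidant genes 19 were called and at least 2-fold higher in SUIT2 and 3 in Panc327, with a median log2 fold change of -0.80. Thioredoxin reductase (TXNRD1) read 1053, 1009 and 1026 CPM in SUIT2 and 154, 155 and 147 CPM in Panc327. The ketoreductase AKR1C3 read 174, 182 and 178 CPM against 3.77, 3.97 and 4.37 CPM, where reads of the near-identical AKR1C genes may be split uncertainly. Not all members followed, and GCLM, a subunit of the enzyme that starts glutathione synthesis, was at 65.2 ± 3.29 CPM in Panc327 and 35.1 ± 3.77 CPM in SUIT2.

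The aryl hydrocarbon receptor, a sensor of dioxins and tryptophan products, and its targets did not move as 1 group. AHR read 462, 451 and 441 CPM in Panc327 and 48.5, 46.8 and 48.5 CPM in SUIT2 (log2 fold change 3.24, SE 0.05), and its best known target CYP1A1 read 82, 83.2 and 80.8 CPM against 0.121, 0.122 and 0.331 CPM. AHRR, the repressor that the receptor itself induces, was the reverse, at 4.55, 6.86 and 8.3 CPM in Panc327 and 114, 126 and 114 CPM in SUIT2 (log2 fold change -4.16, SE 0.10). CYP1B1, NQO1 and ALDH3A1, further targets, were lower in Panc327 as well, with log2 fold changes of -1.80, -2.16 and -2.47. Of the 15 genes, 4 were called and at least 2-fold higher in Panc327 and 6 in SUIT2 (14 tested).

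Interferon-stimulated genes, which cells switch on in answer to interferons and viral RNA, were mostly higher in SUIT2. Of 56 interferon-stimulated genes in the files, 2 were called and at least 2-fold higher in Panc327 and 30 in SUIT2, and 1 had too few counts to be tested, with a median log2 fold change of -1.09. OAS1, a sensor of double-stranded RNA, read 31.9, 33 and 31.3 CPM in SUIT2 and 0.554, 0.322 and 0.437 CPM in Panc327, and the guanylate-binding protein GBP2 read 58.4, 57.9 and 62.4 CPM against 1.88, 2.36 and 2.62 CPM. IFIT3, which binds viral RNA complexes, read 21, 21.5 and 22.2 CPM against 0.998, 0.75 and 1.75 CPM (log2 fold change -4.19, SE 0.18). BST2, which tethers virus particles, was on the other side, at 25.1 ± 1.25 CPM in Panc327 and 10.4 ± 2.23 CPM in SUIT2. ISG15, named here after its values were seen, was at 27.3 ± 2.92 and 24.3 ± 0.647 CPM and was not called (adjusted p = 0.0739, and 0.0394 with RLE size factors).

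Promoters of IFIT3 and ISG15 are shown because both hold the same motif while only IFIT3 differed by more than 2-fold. They are the 250 bases before each gene's start, from RefSeq on GRCh38.p14, 5′ to 3′ on the gene's strand. Matches of the interferon-stimulated response element (GAAA, any 2 bases, then GAAA) are in capitals. Both strands were searched, so that a match on the opposite strand reads as its reverse complement. In ISG15 the matches overlap.
IFIT3 (chr10:89327747-89327996, plus strand): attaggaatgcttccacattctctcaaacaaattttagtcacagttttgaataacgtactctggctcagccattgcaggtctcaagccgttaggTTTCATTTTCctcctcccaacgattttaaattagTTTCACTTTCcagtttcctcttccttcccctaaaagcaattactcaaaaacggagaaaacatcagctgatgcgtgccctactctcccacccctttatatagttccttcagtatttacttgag
ISG15 (chr1:1013247-1013496, plus strand): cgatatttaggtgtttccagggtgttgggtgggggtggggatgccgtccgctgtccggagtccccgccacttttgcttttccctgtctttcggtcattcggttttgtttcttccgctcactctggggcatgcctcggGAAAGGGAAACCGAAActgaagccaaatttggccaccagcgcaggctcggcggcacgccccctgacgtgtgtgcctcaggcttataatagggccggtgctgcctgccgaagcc

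The motif was in 3.05% of 27305 promoters of this length and in 23 of 43 promoters that could be matched to interferon-stimulated genes. A single start per gene symbol was searched, the one with the lowest coordinate on the chromosome. Genes counted as without the motif may therefore hold it before another start or further away. Of those tested, 8 of 22 with the motif and 13 of 20 without it were called and at least 2-fold higher in SUIT2. The median log2 fold changes were -0.56 and -1.23. For the reason given, this split does not compare genes that have the element with genes that lack it. A match is a description of these letters and not a site that was shown to be used.

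Class I presentation genes, many of which respond to interferon, were lower in Panc327 in 11 of 27 cases and higher in 4 by the same 2-fold rule. B2M, the constant chain of every class I molecule, read 193, 194 and 199 CPM in Panc327 and 1635, 1579.6 and 1658 CPM in SUIT2 (log2 fold change -3.06, SE 0.04, adjusted p = 9.78e-80). The immunoproteasome subunits PSMB9, PSMB8 and PSMB10 had log2 fold changes of -3.46, -2.60 and -2.36. HLA-C was at 72.7 ± 4.2 CPM in Panc327 and 233 ± 16 CPM in SUIT2, a value that is uncertain because HLA genes are similar to each other and polymorphic. MICA, a stress ligand for natural killer cells, was the higher in Panc327, at 48.5 ± 2.43 against 18.6 ± 0.447 CPM. Of class II genes, the invariant chain CD74 was at 47.2 ± 2.63 CPM in Panc327 and 6.62 ± 0.846 CPM in SUIT2, whereas the peptide exchange chain HLA-DMB was at 1.13 ± 0.37 and 64.8 ± 0.749 CPM.

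Cytokines and chemokines formed separate sets, with 16 of 41 genes called and at least 2-fold higher in Panc327 and 10 in SUIT2 (32 tested). CXCL14, a chemokine of normal epithelium, read 21.9, 23.5 and 24.9 CPM in Panc327 and had 0 counts in SUIT2, at least 199-fold lower there. The fibrogenic cytokine IL11 and the membrane chemokine CX3CL1 were at 13.6 ± 0.892 and 23.2 ± 2.4 CPM in Panc327 and 0.0773 ± 0.0672 and 0.155 ± 0.0573 CPM in SUIT2. On the other side were the alarmin IL33, with 0 counts in Panc327 and 7.02 ± 0.531 CPM in SUIT2, and IL18, with 17.7 ± 2.51 and 98.5 ± 4.19 CPM. TLR4, the receptor for bacterial lipopolysaccharide, read 40.9, 35.2 and 36.9 CPM in SUIT2 and had 0 counts in Panc327, at least 345-fold lower.

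Metallothioneins, small proteins that bind zinc and copper, are induced through the metal-responsive factor MTF1, which binds metal response elements. Their genes stand side by side on chromosome 16, where 9 neighbouring genes with at least 1 CPM in either line, from 56608199 to 56684196, were all called and at least 2-fold higher in Panc327. MT1A, a member of the same cluster with too few counts to be tested, was the exception, with 23 counts in SUIT2 and 0 in Panc327, at least 8.28-fold lower in Panc327. The promoters of MT2A, MT1X and MT1H are shown because these 3 were all higher in Panc327. They are again the 250 bases before each start from RefSeq on GRCh38.p14, with the core of the metal response element (letters TGCACNC or TGCGCNC, both strands) in capitals.
MT2A (chr16:56608334-56608583, plus strand): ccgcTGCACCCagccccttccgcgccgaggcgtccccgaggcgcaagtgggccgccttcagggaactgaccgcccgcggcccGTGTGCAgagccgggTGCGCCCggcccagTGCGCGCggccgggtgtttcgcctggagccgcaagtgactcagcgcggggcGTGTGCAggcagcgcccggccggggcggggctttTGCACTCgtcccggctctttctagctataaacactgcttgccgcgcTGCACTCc
MT1X (chr16:56682220-56682469, plus strand): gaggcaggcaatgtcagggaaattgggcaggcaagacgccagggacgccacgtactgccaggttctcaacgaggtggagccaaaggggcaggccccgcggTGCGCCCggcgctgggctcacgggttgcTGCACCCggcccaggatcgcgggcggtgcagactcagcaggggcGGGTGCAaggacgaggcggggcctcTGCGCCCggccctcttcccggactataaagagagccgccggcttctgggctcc
MT1H (chr16:56669564-56669813, plus strand): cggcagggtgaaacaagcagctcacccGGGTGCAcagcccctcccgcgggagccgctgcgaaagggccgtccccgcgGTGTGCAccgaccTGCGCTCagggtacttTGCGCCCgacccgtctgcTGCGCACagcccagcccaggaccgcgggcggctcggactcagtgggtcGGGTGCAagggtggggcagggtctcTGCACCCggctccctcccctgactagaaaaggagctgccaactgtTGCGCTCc

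This core was found 7 times in MT2A, 4 times in MT1X and 8 times in MT1H, and at least once in 24.5% of 27305 promoters, where the median number among those with a match was 1. Only 4 metallothionein promoters could be matched, those of MT2A, MT1X, MT1H and MT1B, and all 4 genes held the core and were higher in Panc327. The promoter of MT1A was not among them. No metallothionein without a higher level in Panc327 was therefore searched, and a link of the core to the level was not tested. MT2A read 997, 834 and 867 CPM in Panc327 and 118, 123 and 129 CPM in SUIT2 (log2 fold change 2.86, SE 0.05), and MT1X read 398, 347 and 359 CPM against 23.1, 30.2 and 30.2 CPM (log2 fold change 3.72). MT1G read 544, 431 and 451 CPM in Panc327 and 0.364, 0 and 1.22 CPM in SUIT2, and MT1H read 105, 87.5 and 101 CPM against 0, 0 and 0.442 CPM. Within Panc327, replicate 1 was the highest for MT2A, MT1X, MT1G and MT1H alike. MTF1 was close in the lines, at 31.7 ± 1.36 and 37.4 ± 1.82 CPM (log2 fold change -0.24, SE 0.08), and the zinc exporter SLC30A1, another target of MTF1, was at 62.1 ± 3.77 CPM in Panc327 and 38.1 ± 1.98 CPM in SUIT2 (log2 fold change 0.71). Of 17 genes in the group 9 were called and at least 2-fold higher in Panc327 and 0 in SUIT2, and 5 had too few counts. The coding sequences are nearly alike, so reads may be split between members.

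HOX genes, which record position along the body axis, differed by cluster. In the HOXD cluster 5 of 11 genes were called and at least 2-fold higher in Panc327 and 0 in SUIT2, and in the HOXB cluster 0 and 6 of 14. Only 6 HOXD and 6 HOXB genes had enough counts to be tested, and the shares over all genes tested were 22.1% and 17.6%. Of the HOXD genes not tested, HOXD3 and HOXD4 went the other way, with 12 and 19 counts in SUIT2 and 0 in Panc327. HOXD13, the most posterior HOXD gene, read 20.1, 15.4 and 18.1 CPM in Panc327 and had 0 counts in SUIT2, at least 152-fold lower there, and HOXD10 read 14, 11.5 and 15.9 CPM, also with 0 counts in SUIT2. HOXB6 read 17, 19.9 and 17.9 CPM in SUIT2 and 0.443, 0.322 and 0.546 CPM in Panc327, and HOXB7 read 27.3, 29.8 and 27.5 CPM against 7.09, 6.65 and 6.22 CPM. The HOXA cluster held both directions among its tested genes. HOXA13, its most posterior gene, read 34.2, 31.5 and 39.2 CPM in SUIT2 and 0.333, 0.429 and 0.218 CPM in Panc327, although the antisense gene HOTTIP lies beside it and the strand of counting is not stated. HOXA10 was at 13 ± 0.0525 and 9.08 ± 0.95 CPM. With no filter on low counts 10 HOXB genes in place of 6 were called and at least 2-fold higher in SUIT2.

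Genes better known from neurons were high in Panc327. Of 43 neuroendocrine and neuronal genes in the files, 14 were called and at least 2-fold higher in Panc327 and 3 in SUIT2, and 25 had too few counts to be tested, and their summed level was 1364 to 1399 CPM in Panc327 and 147 to 159 CPM in SUIT2. UCHL1, a ubiquitin hydrolase abundant in brain, read 265, 253 and 266 CPM in Panc327 with 3 counts in SUIT2, and the neuronal filament internexin (INA) read 192, 192 and 185 CPM with 2 counts in SUIT2. The adhesion proteins CNTN1 and NRCAM were at 286 ± 7.38 and 61.3 ± 2.73 CPM in Panc327, with 0.228 ± 0.185 CPM and 0 counts in SUIT2. Most listed genes, 25, had too few counts in every group to be tested, so the statement covers a minority of the list.

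Imprinted genes are expressed from 1 parental copy. Of 39, 25 were tested, and of these 11 were called and at least 2-fold higher in Panc327 and 5 in SUIT2 (22.1% and 17.6% of all genes tested). MEST, a paternally expressed hydrolase, read 283, 297 and 284 CPM in Panc327 and 2.55, 1.34 and 2.32 CPM in SUIT2, and NLRP2 read 135, 146 and 139 CPM with 1 count in SUIT2. IGF2, a fetal growth factor, was the higher in SUIT2, at 18.8 ± 0.721 against 7.21 ± 1.07 CPM. IGF2BP1, a fetal RNA-binding protein that is not imprinted, read 153, 161 and 159 CPM in Panc327 with 1 count in SUIT2 and 0 counts in BxPC3.

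A set of genes was seen in 1 of the lines only. At a mean of at least 10 CPM in one line and at most 3 counts over the 3 libraries of the other, 207 genes belonged to Panc327 (91 with 0 counts in SUIT2) and 82 to SUIT2 (33 with 0 counts in Panc327). These are the far end of the contrast and carry no test of their own. With THZ1, in libraries whose counts did not choose these genes, 189 of the 207 and 74 of the 82 again had at most 3 counts in the low line. The level in the high line was not part of this count. Panc327, the low line of the 82, had fewer gene counts per library with THZ1 (5626146 to 6721403) than with DMSO (8348987 to 8631273). At most 3 counts were therefore easier to meet there. Leaving out 1 library raised the number at most to 272 for Panc327 and 108 for SUIT2, since fewer libraries make 3 counts easier to meet. BxPC3 expressed 56 of the 207 and 15 of the 82 at 10 CPM or more.

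PTPRZ1, a receptor phosphatase best known from glia, had 322, 342 and 353 CPM in Panc327 and 1 count in SUIT2, a ratio of 8637 (95% interval 1549.8 to 341188). TENM2, a synaptic adhesion protein, read 321, 329.7 and 321 CPM in Panc327 and 3 counts in SUIT2, all of them in replicate 3. QPCT, an enzyme that cyclises the glutamine at the start of peptides, read 121, 132 and 120.0 CPM with 0 counts in SUIT2 and had the largest bound of the comparison, at least 1055-fold. TDRD1, a germ cell protein of the piRNA pathway, and TMEM30B, a subunit of lipid flippases, were at 106 ± 2.31 and 83.2 ± 3.3 CPM with 0 counts in SUIT2. FOXE1, a forkhead factor of thyroid and squamous epithelium, and S1PR1, a receptor for sphingosine phosphate, were at 79.5 ± 5.41 and 73.6 ± 5.19 CPM, likewise with 0 counts. BxPC3 expressed TMEM30B at 123 ± 8.99 CPM but had 0 counts of TDRD1.

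On the SUIT2 side HS3ST1, a heparan sulfate sulfotransferase, read 218, 218 and 210.3 CPM with 3 counts in Panc327, all in replicate 2. NR5A2, a nuclear receptor of pancreas, liver and gut, read 82.2, 68.4 and 76.2 CPM and had 0 counts in Panc327, at least 694-fold lower. NNMT, which methylates nicotinamide, was at 65.3 ± 5.19 CPM in SUIT2, with 0 counts in Panc327. The alcohol dehydrogenase ADH1C and the fatty acid receptor PPARG were at 104 ± 3.38 and 70.8 ± 1.63 CPM, with 3 counts and 1 count in Panc327. HPGD, which degrades prostaglandins, and the bicarbonate transporter SLC4A4 were at 34.4 ± 1.84 and 32.5 ± 1.94 CPM with 0 counts in Panc327. Several of these, such as HNF4A, NR5A2 and the transporter subunit SLC3A1 (32.4 ± 1.87 CPM), are known from liver, gut or kidney epithelium. BxPC3 had 175 ± 1.93 CPM of HS3ST1 and 41.8 ± 1.69 CPM of PPARG and thus shared some of these genes with SUIT2.

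Differences were not spread evenly over the genome. On chromosome 18, 40.4% of genes tested were called and at least 2-fold higher in Panc327, on chromosome 19 39.2% and on chromosome 14 30.5%, against 22.1% of all genes. The median log2 fold changes of these chromosomes were 0.73, 0.69 and 0.51. SUIT2 was the higher for 29.3% of genes on chromosome 11 and 25.3% on chromosome X, against 17.6% of all. On chromosome 19 the excess lay on the long arm, from 24 Mb on, where 288 of 544 genes were called and at least 2-fold higher in Panc327 (median log2 fold change 1.06), against 101 of 448 genes before that point. Among genes with at least 1 CPM in either line, 10-Mb windows with the largest medians included chromosome 19 from 30 to 40 Mb (90 of 136 genes, median 1.44) and chromosome 17 from 10 to 20 Mb (40 of 69 genes, median 1.28). The lowest was chromosome 5 from 50 to 60 Mb, where 19 of 26 genes were called and at least 2-fold higher in SUIT2 (median -1.65). Neighbouring genes are not independent, so these shares carry no test, and DNA copy number was not measured.

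**Figure D4:**
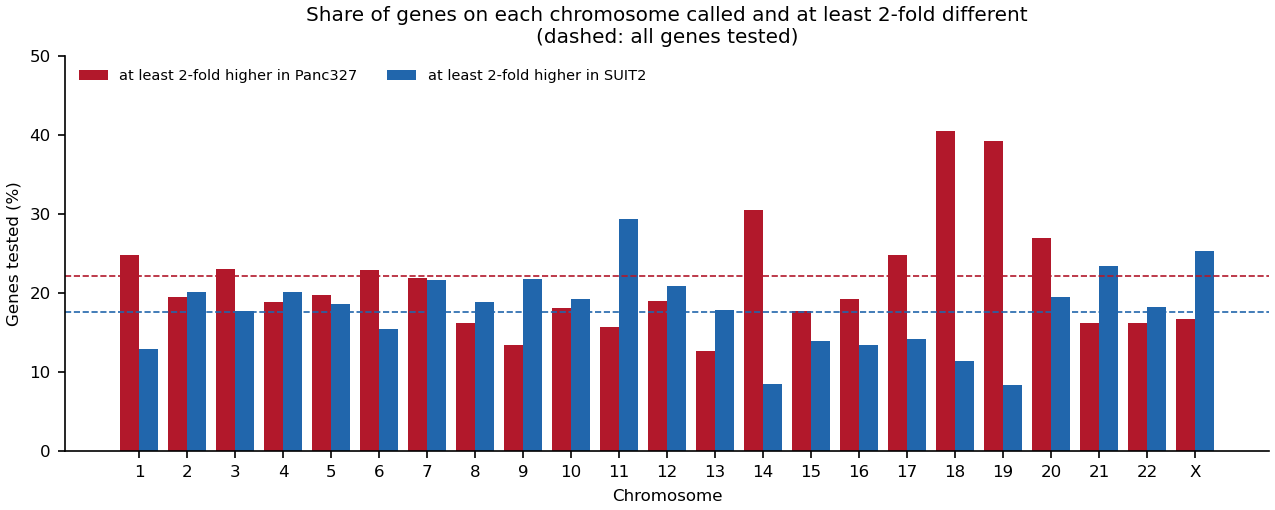
Share of the genes tested on each chromosome that were called and at least 2-fold higher in Panc327 (red bars) or in SUIT2 (blue bars), with the shares over all genes tested as dashed lines (22.1% and 17.6%). Chromosomes 18 and 19 stand highest for Panc327 at 40.4% and 39.2%, and chromosome 11 stands highest for SUIT2 at 29.3%.

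Many zinc finger genes lie on chromosome 19. Of 202 ZNF genes tested on chromosome 19, 104 were called and at least 2-fold higher in Panc327, against 41 of 239 ZNF genes elsewhere and 285 of 790 other genes on chromosome 19. By position, these were 94 of 146 ZNF genes from 24 Mb on and 10 of 56 before that point, and 194 of 398 other genes from 24 Mb on. The 1 run of chromosome 19 genes higher in SUIT2 lay before that point and held ZNF506, ZNF253, ZNF93 and ZNF737. The longest run of neighbouring genes with at least 1 CPM that were all at least 2-fold higher in Panc327 held 23 genes, from ZNF548 to ZNF606 on chromosome 19 between 57389850 and 58003349. Over the genome there were 103 runs of 4 or more such genes in Panc327, with 562 genes, and 67 in SUIT2, with 318 genes and at most 8 in a run. Chromosome 19 held 23 of the runs of Panc327.

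Several of the runs held clusters of related genes already described. On chromosome 19 from 50723329 to 51108370 a run of 11 genes higher in Panc327 held 8 kallikreins with CLEC11A, C19orf48 and CTU1, and on chromosome 12 from 52232520 to 52814551 a run of 8 held type II keratins. On chromosome 18 a run of 7 genes from 30990008 to 31685836 held 6 desmosomal cadherins and B4GALT6, and a run of 6 from 63389190 to 63903890 held VPS4B and 5 serpins of the B clade. In SUIT2 a run of 7 on chromosome 17 from 48548870 to 48866522 held 6 HOXB genes and CALCOCO2. Other runs held unrelated genes. One of 11 genes on chromosome 17 from 17843511 to 18328055, from TOM1L2 to SMCR8, had log2 fold changes between 1.28 and 2.61, and one of 10 genes on chromosome 3 lay between 13549131 and 14672659. A run of 5 genes higher in SUIT2 on chromosome X, from 43654907 to 44543001, ended at FUNDC1, directly beside KDM6A.

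SIRT6, which the study's title names, and the kinases that THZ1 binds differed by less than 2-fold between the vehicle-treated lines. SIRT6, a chromatin deacylase, read 9.42, 8.58 and 10.6 CPM in Panc327 and 14.9, 14.8 and 19.4 CPM in SUIT2 (log2 fold change -0.79, SE 0.13, adjusted p = 2.26e-08). CDK7 was at 40 ± 0.921 and 35.8 ± 2.32 CPM and was not called (adjusted p = 0.0526, and 0.0248 with RLE size factors), CDK12 at 137 ± 2.66 and 153 ± 5.27 CPM (log2 fold change -0.16), and CDK13 at 97.3 ± 4.05 and 59.8 ± 1.54 CPM (log2 fold change 0.70). Of 25 sirtuins, transcription kinases and partners 3 were called and at least 2-fold higher in Panc327 and 1 in SUIT2 (24 tested). Both counts were below the shares of all genes tested (22.1% and 17.6%).

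The integrated stress response acts through ATF4, whose targets supply amino acids or slow growth. ATF4 read 369.8, 347 and 359 CPM in Panc327 and 235, 242 and 245 CPM in SUIT2 (log2 fold change 0.58, SE 0.04, adjusted p = 1.39e-23). Its targets TRIB3 and DDIT4 read 70.7, 69 and 74.2 CPM and 105, 107 and 103 CPM in Panc327 and 12, 16.1 and 14.6 CPM and 15.3, 15 and 14.9 CPM in SUIT2. DDIT3, which encodes the death-associated factor CHOP, was the reverse, at 7.65, 6.32 and 6.88 CPM in Panc327 and 37, 38.5 and 39.1 CPM in SUIT2 (log2 fold change -2.46, SE 0.11), as was the stress cytokine GDF15, at 3.74 ± 0.407 and 69 ± 7.56 CPM. Of 40 genes of the response in the files, 11 were called and at least 2-fold higher in Panc327 and 4 in SUIT2, and 1 had too few counts to be tested. Over all genes tested the shares were 22.1% and 17.6%, so the count for Panc327 was near that of all genes.

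Of 33 cholesterol and fatty acid synthesis genes, 9 were called and at least 2-fold higher in Panc327 and 1 in SUIT2, against 22.1% and 17.6% of all genes, so the count for Panc327 was near that of all genes. HMGCS1, an early enzyme of the pathway, was at 183 ± 14.5 CPM in Panc327 and 29.2 ± 1.9 CPM in SUIT2. Among cell death genes BCL2L1, which encodes the survival protein BCL-XL, read 61.5, 61.2 and 57.1 CPM in Panc327 and 329, 313 and 312 CPM in SUIT2 (log2 fold change -2.41, SE 0.05), and BCL2 was at 9.63 ± 0.656 and 3.05 ± 0.564 CPM. Among genes of growth arrest, SFN, a 14-3-3 protein of stratified epithelium, was the higher in Panc327 at 441 ± 24 against 53.7 ± 1.41 CPM, and PLK2 was the higher in SUIT2 at 177 ± 6.11 against 13.2 ± 1.21 CPM. For glucose handling, the transporter SLC2A3 read 223, 232 and 220.0 CPM in Panc327 and 1.09, 0.61 and 0.331 CPM in SUIT2, while FBP1, an enzyme of glucose synthesis, read 3.55, 5.15 and 4.69 CPM against 194, 201 and 202 CPM.

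Genes of cell division showed small differences. MKI67, the proliferation marker, was at 941 ± 39.5 CPM in Panc327 and 933 ± 78 CPM in SUIT2, with overlapping libraries (adjusted p = 0.768). Of 41 mitotic genes 14 were called higher in each line, 2 were at least 2-fold higher in Panc327 and 0 in SUIT2. The kinetochore gene NDC80 was 1 of these, at 102 ± 2.8 and 34.8 ± 0.643 CPM. Ribosomal protein genes were mostly a little lower in Panc327, with 57 of 77 called higher in SUIT2 and 16 in Panc327 (39.6% and 42.9% over all genes) and a median log2 fold change of -0.44. RPL32 stood apart, at 2278, 2168 and 2176 CPM in Panc327 and 345, 378 and 354 CPM in SUIT2 (log2 fold change 2.62). Ribosomal protein genes have many processed copies, so their counts are uncertain.

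The same line difference can be measured in the THZ1 libraries of Panc327 and SUIT2, whose group means are not part of the DMSO fold changes. They were fitted in the same model, and so entered the filter, the scaling and the estimate of spread behind the DMSO calls. These libraries stand apart in Panc327, where the share of records counted as multiply aligned was 51.7% to 54.9%, against 13.5% to 13.8% with DMSO and at most 13.8% in SUIT2 with THZ1. The part of this share in the values with THZ1 was not tested. With THZ1 84.9% of genes were called between the lines, and 23.5% were called and at least 2-fold higher in Panc327 and 25.8% in SUIT2. Of the 3100 genes called and at least 2-fold higher in Panc327 with DMSO, 2437 were so with THZ1, 78.6% of the DMSO list and 73.9% of the THZ1 list, and 131 were called on the other side. Of the 2459 genes higher in SUIT2, 1861 were so again, 75.7% of the DMSO list and 51.6% of the THZ1 list, and 19 were called on the other side.

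For the identity genes the log2 difference was large with either treatment, at 9.74 and 11.98 for TP63, 10.06 and 9.90 for KRT5, and -10.70 and -11.75 for VIM, with DMSO and THZ1. B2M differed by -3.06 and -1.97, and MT2A by 2.86 and 2.47. MYC changed side: it was higher in Panc327 with DMSO (0.60) and lower with THZ1 (-1.30, adjusted p = 3.91e-34), and the difference of the differences was -1.90 (adjusted p = 9.33e-37). CDK7 and CDK12 differed by 0.16 and -0.16 with DMSO and by -1.73 and -1.61 with THZ1. Of 77 ribosomal protein genes, 3 were called and at least 2-fold higher in Panc327 with DMSO and 16 with THZ1. The shares of all genes tested were 22.1% and 23.5%, so the count with THZ1 was near that of all genes. Of 41 mitotic genes, 0 were called and at least 2-fold higher in SUIT2 with DMSO and 14 with THZ1, against 17.6% and 25.8% of all genes tested.

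**Figure D5:**
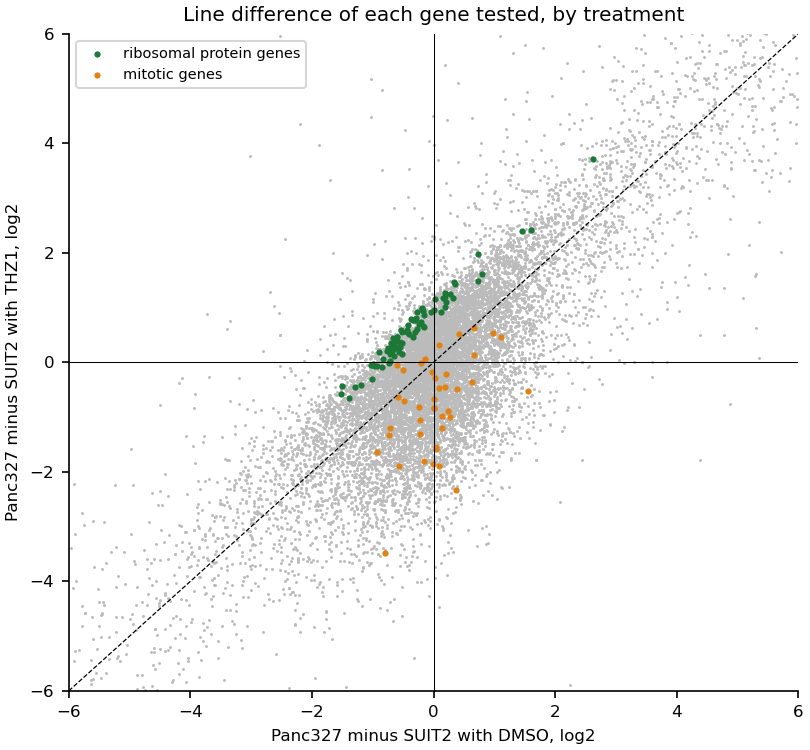
Log2 difference of each gene tested between Panc327 and SUIT2, with DMSO on the horizontal axis and with THZ1 on the vertical axis, both limited to 6 in either direction, which leaves 1178 genes outside. Ribosomal protein genes (green) lie above the dashed line of equal difference and mitotic genes (orange) lie mostly below it, while most other genes scatter around it.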

How the data were processed

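The labels' protocols give RNeasy Mini extraction of poly(A) RNA and TruSeq RNA v2 libraries. Each library came as 1 deposited file of the authors' raw read counts per gene symbol. The submitters' processing notes list hg38, HTSeq 0.6.1, TopHat2 2.1.0 and bcl2fastq 1.8.4. How reads of several genes were assigned, with which annotation and with which strand option, is not given in the sources used here. The kit does not mark strand, so overlapping antisense genes cannot be separated. The counting tool's 5 summary entries, 22.6% to 25.9% of records in the 6 libraries, were set aside.

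Of 26485 symbols, those passing filterByExpr in edgeR 4.0.16 (R 4.3.3; minimum count 10, minimum total 15) were fitted with TMM scaling by the robust quasi-likelihood method, as 6 group means over all 18 libraries, which leaves 12 residual degrees of freedom. SE values are approximate and come from the fold change and its F statistic. TMM sets the typical gene level between libraries, so RNA per cell is not measured. Folds against 0 counts are lower bounds at a floor of 3 counts per group of libraries, and those against 1 to 3 counts carry an exact 95% interval for counting error alone. An SD is over 3 libraries.

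Members and gene lists were chosen with earlier results of these data known. The genes named are the 12 with the largest difference in each direction (at least 10 CPM, no overlap of libraries), up to 6 called members per direction of each list (at least 5 CPM) or any member of a list of 25 or fewer, a few fixed drivers and markers, up to 10 per line seen in 1 line only, and genes in runs of neighbours. ISG15, DHRS9, FOXA3, other genes in runs that are not members of a list, and the neighbours of SMAD4, KDM6A and CDKN2A were added after their values were seen. Some genes that this rule picks are not reported here. Gene positions come from GENCODE 29 (GRCh38), with 23824 symbols matched directly and 687 through an older symbol, and promoters from RefSeq.

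Tested on simulated data (13399 genes, 200 of them changed, dispersion 0.01 where the real value was 0.0012), the procedure found 56.7% of 1.5-fold, 91.0% of 2-fold and 100% of 4-fold changes and made 9 false calls. So few changed genes do not test the scaling under a difference as wide as this one. Alternatives were RLE size factors, library size alone, no filter, DESeq2 1.42.0, voom in limma 3.58.1, the 6 libraries alone, a replicate block, and each library left out. Plots used Python 3.11.15 and matplotlib 3.10.9.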

Additional observations from a re-analysis of the deposited data

Results flagged for a closer look

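A difference between the lines that had opposite signs with DMSO and with THZ1, each sign called, and whose change was called too (edgeR quasi-likelihood test), was found for 5 of the genes named. Only the 227 named genes that were tested were searched, and the share over all genes was not counted. Among all genes called and at least 2-fold different with DMSO, 131 of 3100 for Panc327 and 19 of 2459 for SUIT2 were called on the other side with THZ1. MYC was higher in Panc327 by 0.60 (log2) with DMSO and lower by a log2 difference of -1.30 with THZ1, a change of -1.90 (adjusted p = 9.33e-37). NDC80, a kinetochore gene, went from 1.55 to -0.52, a change of -2.07 (adjusted p = 4.78e-29). ELAC1, a tRNA processing enzyme beside SMAD4, went from 0.87 to -1.67, a change of -2.54 (adjusted p = 1.11e-07). C19orf48, in the run of genes with the kallikreins, went from 1.30 to -0.63, a change of -1.93 (adjusted p = 2.18e-26). TGFA, a ligand of EGFR, went the other way, from -0.46 to 0.15, a change of 0.61 (adjusted p = 1.44e-09). The Panc327 libraries with THZ1 also differed from the others in the share of records aligned to several places (51.7% to 54.9%), and the part of this in the 5 changes was not tested.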

How the results depend on the processing

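The counts of called genes kept within 1.5 times under all 14 alternatives. Genes called and at least 2-fold higher numbered between 2817 and 3810 for Panc327 and between 2355 and 2792 for SUIT2, the lowest with the 6 libraries alone or with the block in them, the highest with no filter. Leaving out 1 library in turn gave 3121 to 3179 and 2473 to 2512 such genes, 5875 to 5948 called higher in Panc327 and 5405 to 5507 in SUIT2. Of 54 list counts recomputed after the data were seen, 3 moved by more than 1.5 times. With only the 6 libraries, classical markers at least 2-fold higher in Panc327 went from 7 to 4 and S100 proteins from 5 to 3, and with the replicate block in those libraries the counts were also 4 and 3. With no filter the HOXB genes higher in SUIT2 went from 6 to 10, by construction from more genes tested. Of the genes named, 0 changed sign and 0 lost a call under these alternatives, and CDK7, ERBB2 and ISG15, not called in the main model, were called under 1 to 4 of them. Leaving out 1 library gave 383 to 408 genes at least 2-fold higher in Panc327 on chromosome 19, and 204 to 272 and 82 to 108 genes seen in Panc327 or SUIT2 only.

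Replicate numbers are shared by the groups, but same-numbered libraries did not deviate together (correlations of -0.125, -0.140 and 0.0139 over 9661 genes), so they were not treated as pairs. Differently numbered libraries had correlations between -0.0375 and 0.152. The highest were 0.152 for Panc327 replicate 2 with SUIT2 replicate 1 and 0.127 for Panc327 replicate 1 with SUIT2 replicate 2. The source of these was not tested. With the replicate block in the model of all libraries, 5984 genes were called higher in Panc327 and 5532 in SUIT2. Depth limits genes seen in 1 line only: 0 counts allow 0.118 CPM in SUIT2 and 0.109 CPM in Panc327.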
